A study of Mus musculus with 6 samples.

Results

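Expression of 9 enzymes of the tricarboxylic acid (TCA) cycle, *Cs*, *Idh2*, *Idh3a*, *Idh3b*, *Idh3g*, *Ogdh*, *Dlst*, *Fh1* and *Mdh2*, was examined in primary mouse hepatocytes. They were chosen by name as cycle enzymes that do not make or oxidize succinate themselves. The rule uses no measured value, but it was set with earlier results of these data known. They are 9 of the 25184 genes in the count table. All 9 passed the filter on low counts, which kept 15105 genes. The libraries came from hepatocytes of chow-fed mice, cultured overnight before stranded paired-end mRNA sequencing. The controls were 3 *Sucnr1* fl/fl libraries (replicates 1, 2 and 3), from mice with floxed alleles of the succinate receptor gene *Sucnr1* and no Cre (*Alb-Cre*-/-). The 3 Hep-*Sucnr1* KO libraries (replicates 3, 4 and 5) came from *Sucnr1* fl/fl mice that also carried *Alb-Cre*+/-, in which the albumin promoter drives Cre in hepatocytes. The paper gives a C57BL6J background for the *Alb-Cre* mice used in the cross and states none for the floxed mice. Both genotypes thus share the floxed alleles and differ in Cre as well as in *Sucnr1*. Ages and sexes are not given per library. RNA of *Sucnr1* fl/fl replicate 1 and Hep-*Sucnr1* KO replicate 3 was extracted on day 1 and that of the other 4 libraries on day 2.

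The TCA cycle oxidizes acetyl units in the mitochondrial matrix. Citrate synthase (*Cs*) joins acetyl-CoA to oxaloacetate, the isocitrate and oxoglutarate dehydrogenases release carbon dioxide and carry the carbon to succinyl-CoA, and fumarase (*Fh1*) and malate dehydrogenase (*Mdh2*) return it from fumarate to oxaloacetate. In hepatocytes the same enzymes also serve gluconeogenesis, amino acid breakdown and the export of citrate for lipid synthesis. Succinate lies between the oxoglutarate dehydrogenase step and the fumarase step, so the 9 enzymes stand upstream and downstream of the ligand of SUCNR1.

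The libraries held 30504248 to 38770694 counts. The targeted gene, *Sucnr1*, had 258, 118 and 103 counts in the control replicates 1, 2 and 3, against 84, 28 and 5 in KO replicates 3, 4 and 5. Every KO library was below every control, but KO replicate 3 kept the most counts. The estimate of −2.23 ± 0.54 (log2 fold change ± SE) had an unadjusted p of 0.0044 and an adjusted p of 0.998 in edgeR. That adjusted p was the lowest of any gene tested for genotype. Where 0.998 recurs below, it therefore does not tell 1 gene from another. The hepatocyte markers summed to 56947 to 91439 CPM (counts scaled to the library total, with TMM factors) over the 6 libraries. Markers of Kupffer cells summed to 30.5 to 110 CPM in the controls and 6.43 to 94.4 in the KO, those of sinusoidal endothelium to 35.3 to 67.4 and 27.8 to 42.6, and those of stellate cells to 4.71 to 21.04 and 3.43 to 7.86. The sum for cholangiocytes, 350.2 to 512 and 426 to 650 CPM, came mostly from *Spp1* and *Sox9*, whereas *Krt7* and *Cftr* reached at most 0.33 and 0.56 CPM. No listed marker was at 0 in all 6 libraries. In bulk RNA, fewer cells of a type and less RNA per cell cannot be told apart. Pericentral hepatocyte markers summed to 1988 to 3061 CPM in the controls and to 2134, 5295 and 1296 CPM in KO replicates 3, 4 and 5. Their part in the values of the 9 enzymes was not tested.

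No difference between the genotypes passed the test for any of the 9 enzymes. In edgeR's quasi-likelihood test with extraction day as covariate, 0 of the 9 passed an adjusted p of 0.05, as did 0 of all 15105 genes (0%), and 0 of the 9 had an unadjusted p below 0.05, a level reached by 563 genes (3.73%). With DESeq2, 0 of the 9 passed, against 7 of the 11005 genes for which it gave an adjusted p (0.0636%). The members' log2 fold changes ran from −0.09 for *Ogdh* to 0.22 for *Idh2*, with 8 estimates above 0 and 1 below. Their median was 0.05, and the median of all genes tested was 0.003. Each member held between 325 and 5313 counts in a library.

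The 95% intervals of the 9 genotype estimates lay between −0.43 and 0.60 on the log2 scale, that is, between 0.742-fold and 1.51-fold of the control. For 8 of the 9 the whole interval lay within 0.5 of 0, as it did for 34.8% of all genes tested. That share covers genes of every level, and it depends on the estimate as well as on the width. The exception among the 9 was *Idh2*, whose interval reached from −0.15 to 0.60. The widest interval of the 9 was that of *Idh3a*, from −0.43 to 0.43. For *Mdh2* and *Dlst*, with the narrowest intervals of the 9, they ended at 1.22-fold and 1.27-fold. The intervals are of single estimates and are no detection limit of the test over all genes, which *Sucnr1* did not pass. P-values describe the spread between these libraries only.

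**Figure D1:**
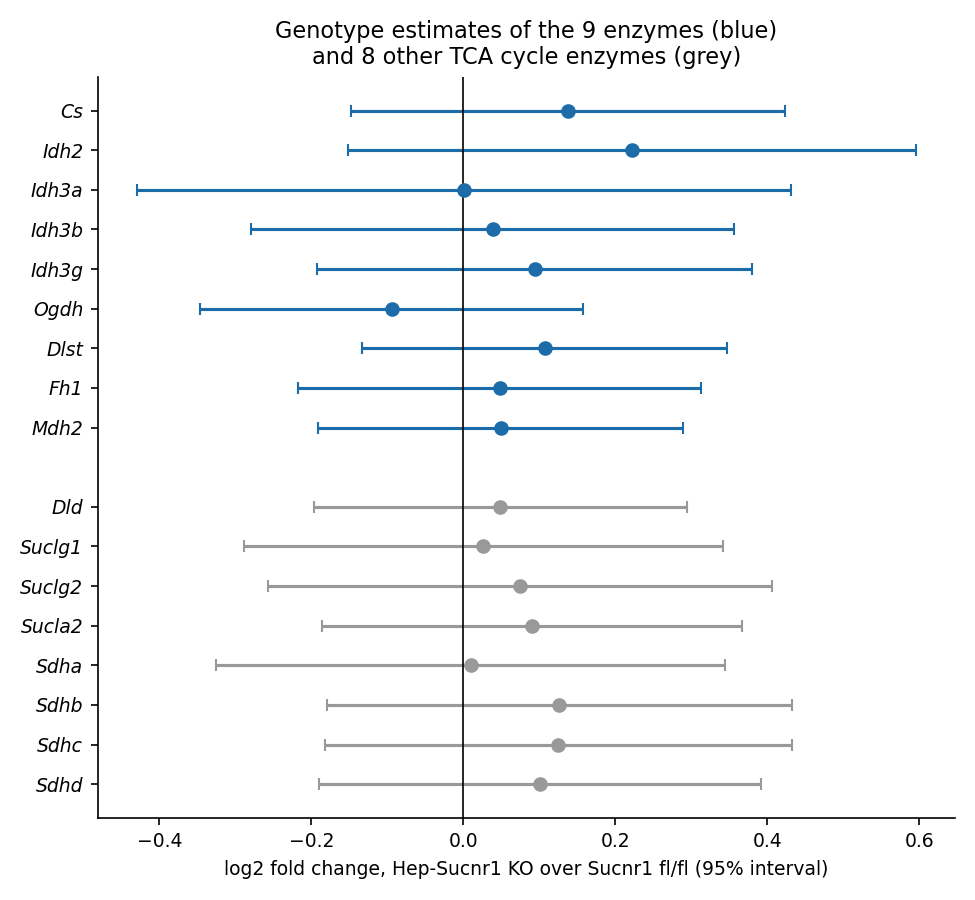
Log2 fold change of Hep-*Sucnr1* KO over *Sucnr1* fl/fl (x axis) for each of the 9 enzymes (blue) and 8 other TCA cycle enzymes (grey). Points are edgeR estimates with extraction day as covariate and bars are 95% intervals, and every bar crosses 0.

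*Cs* (chr10:128337734-128362479 of GRCm38, plus strand) starts the cycle. It stood at 74.9, 73.6 and 74.0 CPM in the controls and at 75.5, 93.4 and 76.3 CPM in KO replicates 3, 4 and 5. With TMM factors the control values were nearly identical (SD 0.662, n = 3), which did not hold without them. Only KO replicate 4, also the library with the highest pericentral marker sum, stood apart, which gave the KO an SD of 10.1 CPM. The groups did not overlap, by 0.617 CPM at the nearest pair, but the estimate of 0.14 ± 0.12 had an adjusted p of 0.998 in edgeR, and a two-sided exact permutation test of the CPM gave p = 0.1, the smallest it can give with 3 against 3. Leaving out 1 library at a time, the estimate ran from 0.03 without KO replicate 4 to 0.20 without control replicate 1.

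*Idh2* (chr7:80094846-80115392, minus strand) encodes the NADP-dependent isocitrate dehydrogenase of mitochondria, which makes NADPH for the matrix. Its values were 42.3, 36.6 and 49.5 CPM in the controls and 40.1, 54.2 and 57.1 CPM in the KO. KO replicates 4 and 5 were the highest of the 6 libraries, while KO replicate 3 fell among the controls. *Idh2* had the highest estimate of the 9, at 0.22 ± 0.16, with an adjusted p of 0.998 in edgeR. Leaving out 1 library at a time, it ran from 0.06 without control replicate 2, the lowest library, to 0.36 without KO replicate 3 and 0.37 without control replicate 1. *Idh2* was also the member whose CPM varied most, with the highest library at 1.56 times the lowest.

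NAD-dependent isocitrate dehydrogenase (IDH3), a main control point of the cycle, is built from a catalytic alpha subunit (*Idh3a*, chr9:54586334-54604661, plus strand), a beta subunit (*Idh3b*, chr2:130279309-130284547, minus strand) and a regulatory gamma subunit (*Idh3g*, chrX:73778963-73786897, minus strand). *Idh3a* stood at 9.94, 14.6 and 10.7 CPM in the controls and at 12.4, 12.3 and 10.4 CPM in the KO. The highest and the lowest of its 6 values were both controls, and its estimate was 0.00 ± 0.18. *Idh3b* stood at 111, 87.1 and 112 CPM in the controls and at 103, 106 and 110 CPM in the KO, with control replicate 2 below the other 5 libraries, which lay within 103 to 112 CPM. *Idh3g* stood at 27.7, 25.5 and 30.7 CPM in the controls and at 26.4, 31.8 and 31.6 CPM in the KO, with overlapping groups. The estimates of *Idh3b* and *Idh3g* were 0.04 ± 0.13 and 0.09 ± 0.12. *Idh3b* overlaps *Nop56* on the opposite strand, and the counting used strand.

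The oxoglutarate dehydrogenase complex makes succinyl-CoA. *Ogdh* (chr11:6291633-6356642, plus strand) encodes its dehydrogenase, and *Dlst* (chr12:85110833-85134845, plus strand) its succinyltransferase core. *Ogdh* was at 132, 130 and 134 CPM in the controls and at 115, 125 and 131 CPM in the KO. With TMM factors the controls were close together (SD 2.11, n = 3) and KO replicate 5 reached into their range. *Dlst* was at 102, 110 and 113 CPM in the controls and at 113, 121 and 115 CPM in the KO, and the groups did not overlap, although KO replicate 3, at 113.4 CPM, was only just above control replicate 3, at 112.9. *Ogdh* had the only estimate below 0, at −0.09 ± 0.11, and *Dlst* was at 0.11 ± 0.10, neither past the test (adjusted p = 0.998 for both in edgeR). The *Ogdh* estimate was −0.04 without control replicate 1 and −0.05 without KO replicate 3.

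*Fh1* (chr1:175600374-175625635, minus strand) encodes fumarase, which hydrates fumarate to malate, and *Mdh2* (chr5:135778480-135790398, plus strand) encodes the matrix malate dehydrogenase, which closes the cycle. *Fh1* was at 138, 118 and 131 CPM in the controls and at 137, 126 and 138 CPM in the KO. In each genotype 1 library lay below the others, and the groups overlapped (0.05 ± 0.11). *Fh1* overlaps *Kmo*, an abundant hepatocyte gene of the opposite strand. *Mdh2* was at 122.0, 122.3 and 125.5 CPM in the controls and at 124, 128 and 131 CPM in the KO, an estimate of 0.05 ± 0.10. With TMM factors its highest library was 1.07 times its lowest, the narrowest range of the 9 in CPM.

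**Figure D2:**
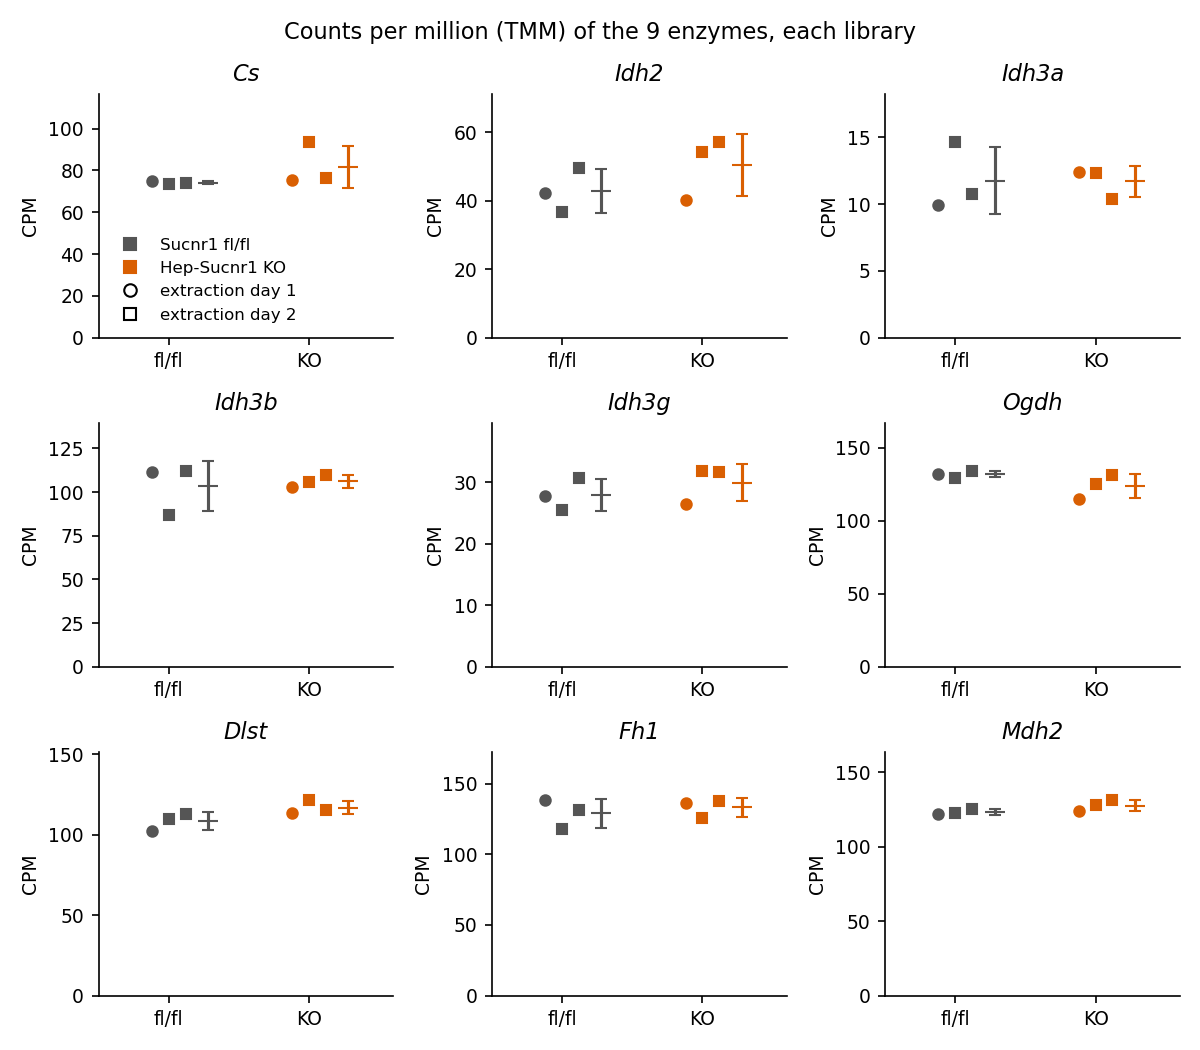
CPM (TMM-scaled, y axis from 0) of each of the 9 enzymes in the 3 *Sucnr1* fl/fl (grey) and 3 Hep-*Sucnr1* KO libraries (orange). Symbols are single libraries, circles from extraction day 1 and squares from day 2, and the dash with bars is the mean ± SD. The genotypes separate for *Cs* and *Dlst* by 0.617 and 0.53 CPM and overlap for the other 7.

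Separation of the genotypes was thus seen in 2 of the 9, *Cs* and *Dlst*, and in 10.6% of all genes tested. The separation depended on how the libraries were scaled, and the share over all genes was counted with TMM only. With DESeq2's size factors the 2 members without overlap were *Dlst* and *Ogdh*, *Ogdh* being lower in the KO (135, 131 and 133 CPM against 114, 124 and 130 CPM). With library size alone *Ogdh* was the sole one, at 131, 141 and 128 CPM in the controls against 117, 124 and 126 CPM in the KO. Each of these exact permutation tests gave p = 0.1. *Sucnr1* fl/fl replicate 2 had the highest TMM factor (1.09), and with TMM it was the lowest of the 6 libraries for 5 of the 9 members, with library size alone for 2. Summed over the 9 enzymes, the transcripts made up 753 ± 32.3 CPM (SD, n = 3) in the controls and 781 ± 30.7 CPM in the KO.

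The ratio of 2 genes within a library does not depend on scaling. The log2 ratio of *Dlst* to *Ogdh* was −0.36, −0.24 and −0.25 in the controls and −0.02, −0.04 and −0.19 in KO replicates 3, 4 and 5. All 3 KO libraries lay above all 3 controls, with a difference of 0.20 between the means (SD 0.07 and 0.09). The two-sided exact permutation p was 0.1, the smallest possible, and 0.4 after Benjamini-Hochberg adjustment over the 4 ratios compared. Within day 1 the difference was 0.35, from 1 library of each genotype, and within day 2 it was 0.13. The 3 ratios within IDH3 overlapped between the genotypes. *Idh3b* to *Idh3a* averaged 3.15 ± 0.50 (SD, n = 3) in the controls and 3.19 ± 0.20 in the KO, and *Idh3g* to *Idh3a* averaged 1.27 ± 0.40 and 1.36 ± 0.26 (exact permutation p = 0.9 and 0.8). Control replicate 2, where *Idh3a* was at its highest, had the lowest value of both. *Idh3b* to *Idh3g* was steadier, at 1.88 ± 0.12 and 1.83 ± 0.12 (exact permutation p = 0.6). These 3 had adjusted p-values of 0.9 each, and without control replicate 2 the differences in *Idh3b* to *Idh3a* and *Idh3g* to *Idh3a* turned from 0.04 and 0.09 to −0.25 and −0.14.

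**Figure D3:**
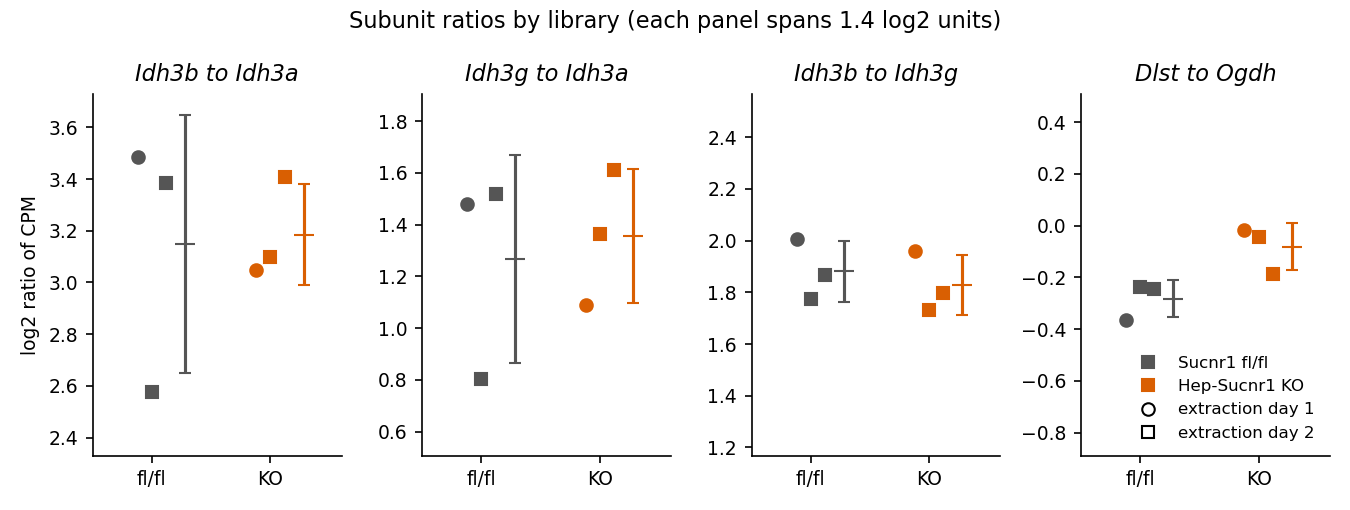
Log2 ratio of CPM between subunits of IDH3 (3 left panels) and of the oxoglutarate dehydrogenase complex (right panel) in each library, with the mean ± SD beside the points. Grey is *Sucnr1* fl/fl, orange Hep-*Sucnr1* KO, circles are day 1 and squares day 2. The genotypes separate in *Dlst* to *Ogdh* and overlap in the other 3 ratios.

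Levels were compared between genes as TPM, in which counts are divided by the summed exon length of the gene and scaled to 1 total in every library. *Fh1* was the highest of the 9 (72.9 TPM on average over the 6 libraries), followed by *Mdh2* (66.4), *Idh3b* (57.5), *Ogdh* (44.1), *Idh2* (33.7), *Cs* (25.4), *Dlst* (22.2), *Idh3g* (20.1) and *Idh3a* (4.39). The order was the same in all 6 libraries, although the ranges of *Fh1* and *Mdh2*, of *Mdh2* and *Idh3b*, of *Cs* and *Dlst* and of *Dlst* and *Idh3g* overlapped. Among the genes tested, 93.5% had a lower mean TPM than *Fh1* and 51.7% a lower one than *Idh3a*. The order changed for 6 of the 9 when the longest protein-coding transcript was taken as the length, a setting chosen after seeing the data. Only the lengths of the 9 were replaced and the scaling was kept. The resulting values are therefore not TPM, and only their order was read. *Mdh2* came first, and *Dlst*, whose summed exons are 9559 bases long and whose longest coding transcript has 2764, moved from rank 7 to rank 4. *Cs*, *Idh3g* and *Idh3a* kept ranks 6, 8 and 9.

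Within IDH3 the catalytic subunit had the lowest transcript level. As background, the assembled enzyme holds more alpha than beta or gamma subunits. *Idh3a* was at 3.76, 6.03 and 3.74 TPM in the controls and at 4.74, 4.44 and 3.63 TPM in the KO, against 53.3 to 62.4 TPM for *Idh3b* and 19.0 to 21.5 TPM for *Idh3g*. Per summed exon length the level of *Idh3b* was 8.84 to 16.6 times, and that of *Idh3g* 3.28 to 5.74 times, that of *Idh3a* in the same library. With the longest coding transcripts the ratios were 9.52 to 17.9 and 3.38 to 5.92. For *Dlst* and *Ogdh* the direction turned with the length, from 0.444 to 0.565 with summed exons to 1.16 to 1.48 with the longest coding transcripts. Which transcripts of each gene were present cannot be read from counts per gene.

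**Figure D4:**
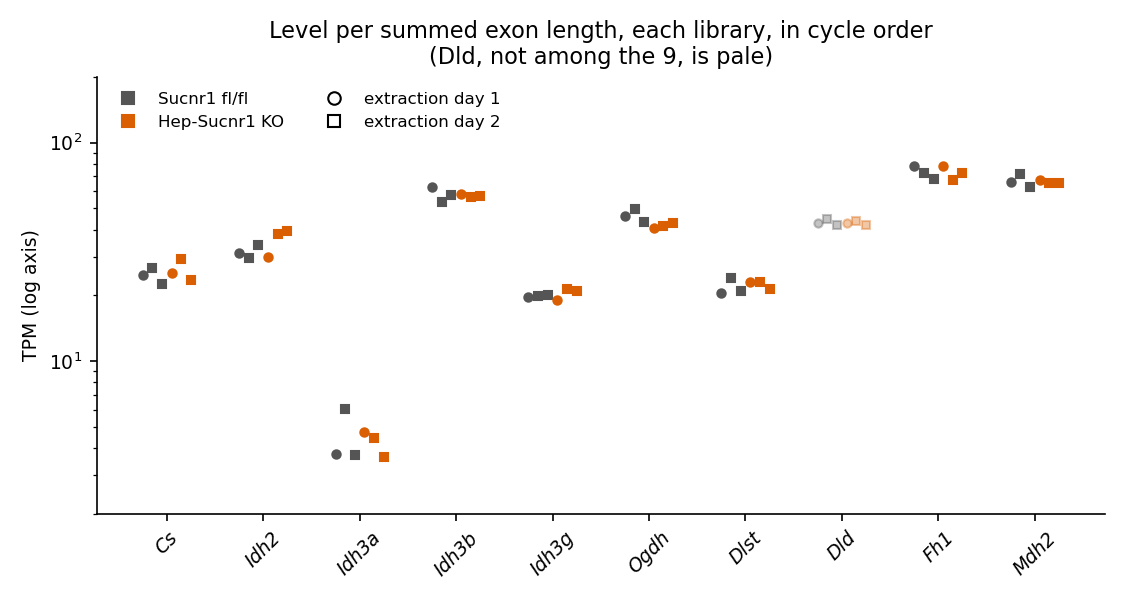
Level per summed exon length (TPM, log axis) in each library, in the order of the cycle, with grey for *Sucnr1* fl/fl, orange for Hep-*Sucnr1* KO, circles for day 1 and squares for day 2. *Dld*, pale, is the third subunit of the oxoglutarate dehydrogenase complex and not among the 9. *Idh3a*, at 3.63 to 6.03 TPM, lies below all other enzymes shown.

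The spread between libraries differed among the 9 enzymes. The SD of log2 CPM over the 6 libraries ran from 0.04 for *Mdh2* to 0.26 for *Idh2*, with a median of 0.13, against 0.25 for all genes tested and 0.17 for the 7066 genes with a mean of at least 10 CPM. Of the 9, 8 were below the first of these medians and 7 below the second, which *Idh2* and *Idh3a* (0.21) exceeded. Of the genes tested, which are of every level, 0.185% had a smaller SD than *Mdh2*, 4.24% than *Dlst*, 4.57% than *Ogdh* and 6.31% than *Fh1*. The other 5 were less extreme, from 17.8% for *Cs* to 41.3% for *Idh3a* and 52.0% for *Idh2*. In the 8 other TCA cycle enzymes the SD ran from 0.07 for *Dld* to 0.14 for *Sdhc*, so a low spread was not particular to the 9. These SDs were computed with TMM factors only. In TPM *Idh3g*, from 19.0 to 21.5, had a narrower range relative to its level than *Mdh2*, from 62.3 to 71.8. The members did not vary as 1 unit. The log2 CPM of *Idh3g* and *Idh2* followed the mean of the other 8 members with Pearson's r of 0.94 and 0.90 over the 6 libraries, *Ogdh* and *Fh1* had r of 0.01, and *Idh3a* ran the other way with r of −0.60. The genes with the pattern most like the mean of all 9 were *Ube2f*, *Adh1*, *Tspo*, *Xdh* and *Mettl26*, with r of 0.98 each and Spearman's rho of 1 among 7057 genes. With 6 libraries that share scaling factors, these correlations are descriptions.

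**Figure D5:**
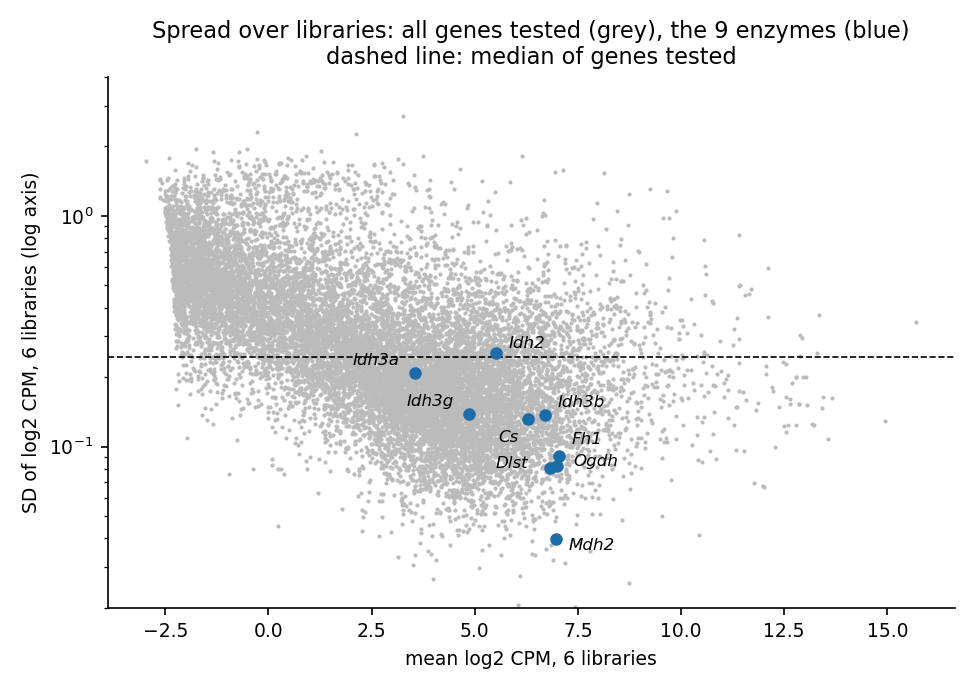
SD of log2 CPM (TMM-scaled) over the 6 libraries (log axis) against mean log2 CPM for the 15105 genes tested (grey) and the 9 enzymes (blue). The dashed line is the median SD of the genes tested, 0.25, and 8 of the 9 enzymes lie below it, *Mdh2* lowest at 0.04.

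Extraction day was tested in the same model, and no day effect passed the test for any member. In edgeR 0 of the 9 and 0 of all genes (0%) passed an adjusted p of 0.05 for day, and 0 of the 9 had an unadjusted p below 0.05, as 7.49% of all genes did. DESeq2 called 0 of the 9 and 225 of 13933 genes (1.61%). The day estimates (day 2 over day 1) ran from −0.10 ± 0.12 for *Fh1* to 0.24 ± 0.17 for *Idh2*. Without *Sucnr1* fl/fl replicate 2, *Idh2* had an unadjusted p below 0.05 for day, with an estimate of 0.33 ± 0.12 and an adjusted p of 0.425 in edgeR. In that fit 1513 of 15121 genes had an unadjusted p below 0.05 for day, and 29 passed the adjusted threshold. The interaction of genotype and day called 0 of the 9 in edgeR (0 of all genes, 0%, with 0 of the 9 and 3.69% of all genes at an unadjusted p below 0.05) and 0 of the 9 in DESeq2 (0.0265% of all genes).

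Within the days the members with the largest interaction estimates moved in opposite ways. For *Idh2* the difference in log2 CPM between KO and control was −0.08 on day 1, with 1 library each, and 0.39 on day 2, with 2 each, and the interaction was 0.45 ± 0.32 (adjusted p = 1.00 in edgeR). For *Idh3a* the differences were 0.32 and −0.15, and the interaction was −0.48 ± 0.37 (adjusted p = 1.00 in edgeR). Both adjusted p-values, 0.99975 before rounding, were the lowest of any gene in edgeR's interaction test. For *Ogdh*, by contrast, both were below 0, at −0.20 and −0.04, and for *Dlst* both were above 0, at 0.15 and 0.09. On day 2 alone, *Cs*, *Idh2*, *Idh3g*, *Dlst* and *Mdh2*, 5 of the 9, had both KO libraries above both controls, where 29.1% of all genes tested showed no overlap of 2 against 2. In a comparison added after seeing the data, DESeq2's size factors gave the same 5 and *Ogdh*, lower in the KO. With library size alone it was 3 members, *Idh2* and *Idh3g* higher and *Ogdh* lower in the KO. The share over all genes was not counted with either of these scalings, so these counts have no background beside them.

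Of 8 other enzymes of the cycle, 0 passed the test. The shared dehydrogenase subunit *Dld*, the succinyl-CoA ligase subunits *Suclg1*, *Suclg2* and *Sucla2* and the succinate dehydrogenase subunits *Sdha*, *Sdhb*, *Sdhc* and *Sdhd* had estimates of 0.05, 0.03, 0.07, 0.09, 0.01, 0.13, 0.12 and 0.10. None of these 8 passed in edgeR or DESeq2, 0 had an unadjusted p below 0.05, and the median was 0.08. *Sdha* was at 325, 268 and 336 CPM in the controls and 292, 328 and 315 CPM in the KO. It was the highest of them in CPM, which takes no account of gene length. *Sdhb*, with the lowest p of the list, was at 101, 83.9 and 107 CPM in the controls and 104, 104 and 111 CPM in the KO, an estimate of 0.13 ± 0.13. *Sucnr1* fl/fl replicate 2 was the lowest of the 6 libraries for all 8 of them with TMM and for 7 with library size alone. Among genes with a mean of at least 10 CPM it was the lowest for 23.8%.

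Lists of genes around the cycle were counted in the same test, and 0 members of any list passed an adjusted p of 0.05 in edgeR or in DESeq2. Of 15 tested genes of pyruvate entry and its control, 0 had an unadjusted p below 0.05 (median 0.03), and *Me1*, the cytosolic malic enzyme, had the lowest, with 233, 176 and 189 CPM in the controls and 227, 242 and 209 CPM in the KO. Of 6 cytosolic counterparts and citrate-using enzymes, 0 did (median −0.02). *Idh1*, the cytosolic NADP-dependent isocitrate dehydrogenase, was lowest in p there, and its values of 185, 185 and 171 CPM in the controls did not overlap with 197, 204 and 201 CPM in the KO, an estimate of 0.15 ± 0.11 (exact permutation p = 0.1). *Idh1* and *Idh2*, which catalyse the same reaction in different compartments, thus both had estimates above 0 that did not pass the test. Of 7 genes of glutamine and aspartate entry, 0 had an unadjusted p below 0.05 (median −0.03). *Glud1*, glutamate dehydrogenase, was at 680, 584 and 518 CPM in the controls and at 529, 614 and 438 CPM in the KO. Of 7 mitochondrial carriers of cycle intermediates, 0 did (median 0.08), and *Slc25a10*, the dicarboxylate carrier, was at 76.7, 69.7 and 73.4 against 58.7, 76.4 and 60.6 CPM.

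In 3 lists 1 gene each had an unadjusted p below 0.05, lower in the KO, next to the 3.73% of all genes. Among 6 tested genes of lipoylation and dehydrogenase partners (median 0.04) it was *Dhtkd1*, a paralog of *Ogdh* that acts on oxoadipate in lysine breakdown. *Dhtkd1* was at 11.8, 10.2 and 14.2 CPM in the controls and at 7.69, 8.51 and 9.26 CPM in the KO, with no overlap, an estimate of −0.51 ± 0.16 and an adjusted p of 0.998 in edgeR. Among 10 regulators of mitochondrial genes (median −0.09) it was *Ppargc1a*, the coactivator PGC-1alpha, which was at 4.08, 2.74 and 2.90 CPM in the controls and at 2.09, 1.57 and 2.52 CPM in the KO, without overlap (−0.63 ± 0.26, adjusted p = 0.998 in edgeR). Among 13 mitochondrially encoded mRNAs (median −0.06, 1 estimate above 0) it was *mt-Nd6*, the only one encoded on the light strand, at 63.5, 43.5 and 55.0 CPM against 33.7, 41.3 and 29.5 CPM (−0.62 ± 0.18, adjusted p = 0.998 in edgeR). Mitochondrially encoded genes took 8.99 to 9.62% of counts in the controls and 7.70 to 9.71% in the KO.

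The sequence before the start sites was read from RefSeq promoter windows of 250 bases before to 50 after the start (GRCm38), which matched 8 of the 9 genes, all but *Idh3a*. Letter motifs were searched on both strands. The GC box GGGCGG was in 6 of the 8 windows (*Cs*, *Idh2*, *Ogdh*, *Dlst*, *Fh1* and *Mdh2*) and in 35.7% of all 32851 windows, and CCAAT was in 5 (*Cs*, *Idh2*, *Idh3b*, *Ogdh* and *Fh1*) and in 37.4% of all. The 250 bases before the start held 46.8% (*Idh3b*) to 67.2% (*Idh2*) G and C in the 8 genes. The median of all windows was 52.4%, and all but *Idh3b* were above it. Windows of like G and C content were not compared. The ETS core CCGGAAG was in *Idh3b*, *Idh3g* and *Dlst* and in 8.86% of all. The NRF1 motif (4.603% of all), TCAAGGTCA, bound by estrogen-related receptors (0.423%), TATAAA (13.6%) and CACGTG (7.15%) were in 0 of the 8, which says only that these letters are not in these windows. A match is a description and not a binding site. The stretches of *Cs* (chr10:128337477-128337726, plus strand), *Ogdh* (chr11:6291409-6291632, plus strand) and *Fh1* (chr1:175625636-175625885, minus strand) are shown as examples that hold both a GC box and CCAAT, and that of *Idh3g* (chrX:73786898-73787027, minus strand) as an example with the ETS core. Bases of annotated exons were left out, which shortened the stretch of *Ogdh* to 224 and that of *Idh3g* to 130 bases. The capitals mark GC box, CCAAT or ETS core letters in either orientation, and each stretch is printed 5′ to 3′ on the strand of its gene.
Cs: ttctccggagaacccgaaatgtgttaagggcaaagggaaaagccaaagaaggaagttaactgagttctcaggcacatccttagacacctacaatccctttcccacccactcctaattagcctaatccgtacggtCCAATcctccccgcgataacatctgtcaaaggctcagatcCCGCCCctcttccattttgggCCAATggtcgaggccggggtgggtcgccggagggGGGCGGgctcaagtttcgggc
Ogdh: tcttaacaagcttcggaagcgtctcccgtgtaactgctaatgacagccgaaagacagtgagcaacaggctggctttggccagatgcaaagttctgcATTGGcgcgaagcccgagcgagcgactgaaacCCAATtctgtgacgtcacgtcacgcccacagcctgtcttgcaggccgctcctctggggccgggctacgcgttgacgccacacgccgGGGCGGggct
Fh1: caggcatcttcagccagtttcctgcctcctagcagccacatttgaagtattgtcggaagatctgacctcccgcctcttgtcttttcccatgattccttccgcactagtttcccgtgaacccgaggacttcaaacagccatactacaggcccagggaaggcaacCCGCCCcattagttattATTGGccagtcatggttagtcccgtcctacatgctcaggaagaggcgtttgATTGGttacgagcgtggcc
Idh3g: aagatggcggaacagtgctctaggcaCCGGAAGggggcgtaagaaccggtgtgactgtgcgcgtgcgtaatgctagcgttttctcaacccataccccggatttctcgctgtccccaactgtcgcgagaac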

How the data were processed

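The authors trimmed reads with Trim Galore 0.6.7, aligned them to GRCm38 with STAR 2.7.10a and counted read pairs per gene by strand with featureCounts on the Ensembl annotation, and deposited the raw counts of 6 libraries in 1 table. How pairs that match several genes were counted is not given in the sources used here. Among annotated transcripts of other genes, none matched a member at 95% identity or more over 100 bases or more (BLAST+ 2.17.0).

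Genes with a mean DESeq2-normalized count above 5 were kept. Genotype and extraction day were tested in 1 model with edgeR 4.0.16 (R 4.3.3, quasi-likelihood, TMM, Benjamini-Hochberg adjustment over all genes, threshold 0.05), and their interaction in a further one. A check on simulated data covered the first model only, and its outcome is not given here. DESeq2 1.42.0 was the alternative, and others changed scaling, filter, covariates and libraries. Log2 CPM used a prior count of 2. For single values a two-sided exact permutation test was used (SciPy 1.17.1). The genotypes share only replicate number 3, which pairs no libraries. The members and lists were chosen with earlier results of these data known. The genes named were the 9 members, *Sucnr1*, the remaining TCA cycle enzymes except 1 that is not reported here, in each list any gene past the threshold and the one with the lowest p, and the 5 genes of at least 10 mean CPM whose log2 CPM followed the members' mean most closely. Exon lengths and coordinates were taken from GENCODE on GRCm38, the build of the counts. Of the listed genes, *Me3* and *Ogdhl* were below the filter. Raw reads were not analysed here.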

Additional observations from a re-analysis of the deposited data

How the results depend on the processing

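The 9 enzymes were called in 0 of 16 alternatives for genotype, 0 of 10 for extraction day and 0 of 1 for the interaction. For genotype, every alternative in edgeR called 0 of all genes, so 0 of the 9 says nothing particular about them. DESeq2 called 7 of 11005 genes. For day, genes were called with DESeq2 (225 of 13933), with no filter (122 of 25184) and without *Sucnr1* fl/fl replicate 2 (29 of 15121). For the interaction DESeq2 called 4 of 15105 genes. The estimates of *Cs*, *Idh2*, *Dlst*, *Mdh2* and *Ogdh* kept their sign in all 16 alternatives for genotype, over which they ran from 0.03 to 0.20, from 0.06 to 0.37, from 0.07 to 0.13, from 0.02 to 0.06 and from −0.13 to −0.04. The estimate of *Idh3a*, 0.00, turned to −0.022 with DESeq2, with its size factors in edgeR, with no filter and without mitochondrially encoded genes, to −0.039 with library size alone, to −0.014 with edgeR's own filter, to −0.0064 with no covariate and to −0.17 on day 2 alone, and it ran from −0.17 to 0.18 when each library was left out. A further fit held a term that split the libraries by the number in their names, with no KO library beside control replicates 1 and 2. The labels do not tie these numbers to a batch, and the term is partly confounded with genotype. In that fit *Idh3b* was at −0.11, *Idh3g* at −0.0058 and *Fh1* at −0.020. Leaving out each library, they ran from −0.080 to 0.12, from −0.0030 to 0.17 and from −0.0045 to 0.083. The median over the 9 ran from 0.035 to 0.12 over the libraries left out, the highest being without *Sucnr1* fl/fl replicate 3, and from 0.019 to 0.079 otherwise. The median for extraction day ran from −0.020, without Hep-*Sucnr1* KO replicate 3, to 0.11, and the number of members at an unadjusted p below 0.05 for day from 0 to 1. The 1 was *Idh2* without *Sucnr1* fl/fl replicate 2, a fit in which 1513 of 15121 genes reached that level. With library size alone, 1 member in place of 2 separated the genotypes. With each library left out, the differences in log2 ratio ran from −0.25 to 0.21 for *Idh3b* to *Idh3a*, from −0.14 to 0.22 for *Idh3g* to *Idh3a*, from −0.12 to 0.010 for *Idh3b* to *Idh3g* and from 0.16 to 0.25 for *Dlst* to *Ogdh*. No paired analysis was possible because the genotypes share 1 replicate number. With 3 libraries a group, no exact test could reach 0.05.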
